A study of Mus musculus with 26 samples.

Results

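The genes described here code for the subunits of ligand-gated ion channels that open on binding glutamate, GABA, glycine, acetylcholine or serotonin. They were chosen by a rule on gene symbols that uses no measured value: every gene of the AMPA, NMDA, kainate, delta, GABA-A, glycine, nicotinic and 5-HT3 receptor families, leaving out antisense and pseudogene names. The rule found 60 of the 55401 genes in the count tables. They comprised 4 AMPA, 7 NMDA, 5 kainate, 2 delta, 16 GABA-A, 3 GABA-A rho, 5 glycine, 11 neuronal-type nicotinic, 5 muscle-type nicotinic and 2 5-HT3 receptor genes.

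These channels are built from several subunits around a central pore, and the mix of subunits sets how fast a channel closes, which ions pass and which drugs bind. AMPA, NMDA, kainate and delta subunits form tetramers; GABA-A, glycine, nicotinic and 5-HT3 subunits form pentamers. Sensory neurons of the dorsal root ganglion carry many of them on their peripheral and central endings, where kainate and GABA-A receptors alter transmitter release, and GABA depolarizes these neurons because they hold chloride at a high level.

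RNA was sequenced from 26 libraries of mouse L4-L6 dorsal root ganglia, in a study of the aryl hydrocarbon receptor (Ahr, a ligand-activated transcription factor) and nerve injury. The cKO mice were Ahr f/f Thy1-CRE(ERT2/EYFP), in which a tamoxifen-activated Cre under the neuronal Thy1 promoter is meant to delete Ahr, and the controls were Ahr fl/+ or Ahr fl/fl without Cre (Ahr f/+ or Ahr fl/fl in the sham set). Naive ganglia and ganglia 1 day after sciatic nerve crush came from 3 mice per genotype. Those mice, controls included, had received tamoxifen at 28 weeks of age, at 100 mg/kg on each of 5 days, and were studied 5 weeks later. A second table held semi-purified neurons 24 hours after seeding (3 libraries per genotype, all female) and ganglia from both sides of male mice 1 day after sham surgery (2 mice per genotype). For the neurons and the sham set, neither the labels nor the design text used here gives tamoxifen or age.

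Libraries held from 20169388 to 23540375 assigned reads for naive and crushed animals, and from 25299938 to 88180611 in the second table. Ahr itself, counted over its whole gene body, was at 18.9 to 23.8 CPM (counts scaled to library size) in naive control and 22.7 to 28.1 CPM in naive cKO ganglia. It was at 36.2 to 38.7 and 38.8 to 40.5 CPM in injured ganglia, 44.7 to 56.1 and 44.3 to 56.6 in neurons, 14.8 to 18.5 and 16.5 to 17.5 on the operated and 13.0 to 14.1 and 13.9 to 14.3 on the opposite side of sham mice. These counts do not show a loss. They cannot show a deleted exon or a loss in the Thy1 neurons alone, and "cKO" below means the label. In 2 of the 26 libraries the sex-linked transcripts went against the labelled sex: injured control replicate 3 and injured cKO replicate 2. By transcripts the injured cKO group held 2 males and the naive cKO group none, and the injury results are therefore given with and without these 2 libraries. Sensory neuron markers (Rbfox3, Snap25, Tubb3, Uchl1, Prph, Nefh and Avil) summed to 5913 to 9135 CPM in the ganglia and 3821 to 4662 CPM in the cultured neurons, and Schwann cell markers to 3169 to 5962 CPM and 817 to 969 CPM. In bulk RNA, fewer cells of a type and less RNA per cell cannot be told apart.

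In naive control ganglia 42 of the 60 receptor genes were detected, taken here as a mean of at least 0.5 CPM. The most abundant per kilobase of exon was Grik1, coding for the kainate receptor subunit GluK1, at 42.8 ± 1.65 CPM per kb (SD, n = 3). It was followed by Glrb, the anchoring beta subunit of glycine receptors, at 38.7 ± 3.73 CPM per kb, Htr3a, the obligatory 5-HT3 receptor subunit, at 34.6 ± 4.30, and Chrna6, the nicotinic α6 subunit, at 29.8 ± 3.13. Neighbours among these 4 differed by less than their summed SDs, and Chrnb2 (nicotinic β2) at 23.4 ± 1.83 CPM per kb came next. Among AMPA receptor genes Gria4 was highest, at 15.8 ± 1.63 CPM per kb, and Gria2, whose edited subunit keeps AMPA channels closed to calcium, was lowest at 1.54 ± 0.144. Among NMDA receptor genes Grin1, the obligatory subunit, had 4.49 ± 0.461 CPM per kb.

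The order depends on the length used. The counts appear to cover whole gene bodies, so intron reads can raise the values per kilobase of exon where introns are long. Grik1 spans 394366 bases, of which 6721 are in exons. The authors' FPKM values divide by the whole gene span, introns included, and on that scale Chrnb2 ranked 1, Chrna6 ranked 2, Htr3a ranked 3, Glrb ranked 4, Grin1 ranked 5 and Grik1 ranked 9. Chrnb2 shares its locus with Adar on the opposite strand, whose total over all libraries was 61.3% of that of Chrnb2, and the counts did not separate strands. The same holds for Grin1 and Grin1os, at 50.9%, and for Htr3a and Gm32335, at 75.1%. Levels of these genes are therefore uncertain.

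**Figure D1:**
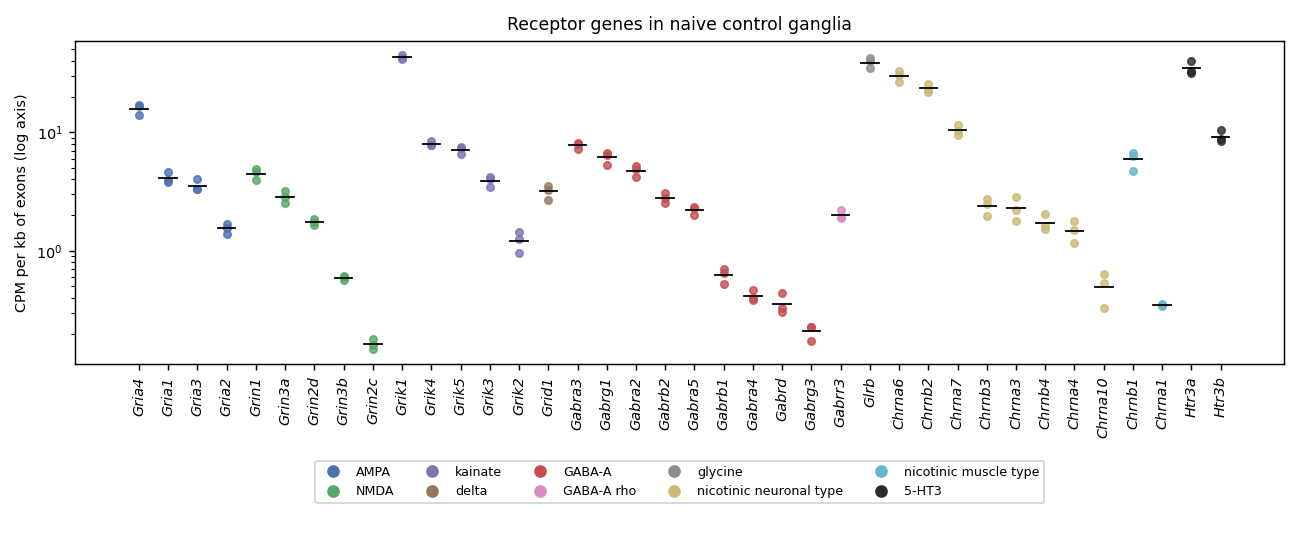
CPM per kilobase of exons (log axis) of 38 receptor genes detected in naive control ganglia, grouped by family and ordered by level within each; each point is 1 of 3 mice and each bar the mean. Grik1, Glrb, Htr3a and Chrna6 have the highest means, from 42.8 down to 29.8.

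Across all 10 groups 48 of the 60 genes reached 0.5 CPM in at least 1 group. The 12 that did not were Chrna2, Chrna9, Chrnd, Chrne, Chrng, Gabra6, Gabrp, Gabrq, Glra1, Glra3, Glra4 and Grin2a. They include 3 of the 4 glycine receptor α subunit genes; the other, Glra2, reached 0.535 CPM in injured control ganglia. Gabra6, the α6 subunit known from cerebellar granule cells, had no count in any library, and Chrnd, Chrne and Chrng belong to the receptor of the neuromuscular junction.

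Nerve crush was followed by changes in both directions. In control ganglia 15 of the 44 receptor genes that passed the filter on low counts changed, 4 upward and 11 downward (edgeR's quasi-likelihood test, Benjamini-Hochberg adjusted p under 0.05 over all genes), against a background of 21.6% of all 21261 genes tested; 12.9% of all genes rose and 8.73% fell. In cKO ganglia 16 of 44 changed, 3 upward and 13 downward, against 18.6% of all genes (10.7% rising, 7.89% falling). The median log2 fold change of the tested receptor genes was -0.15 in control and -0.17 in cKO ganglia, and that of all genes -0.02 and -0.0046. Of the calls, 12 were shared and had the same direction in both genotypes, which use no library in common; they made up 80% of the control calls and 75% of the cKO calls. Over all genes 2996 calls were shared with the same direction, 65.1% of the control and 75.6% of the cKO calls. Naive and injured libraries did not overlap for 22 of 44 receptor genes in control ganglia (38.1% of all genes) and 23 of 44 in cKO ganglia (36.1%). Sensory neuron markers had a median log2 change of 0.05 in control and -0.01 in cKO ganglia, with 0 of 7 and 1 of 7 changed. Markers of satellite glia (4 genes) summed to 1770 to 1854 CPM in naive and 1950 to 2084 in injured control ganglia, without overlap, and to 1765 to 2012 and 1963 to 2204 CPM in cKO ganglia, with overlap. A list of 4 spinal motor neuron markers summed to 177 to 198 and 123.3 to 134 CPM in control and 195 to 216.5 and 111 to 137 CPM in cKO ganglia; Isl2 was the 1 of them that passed the filter on low counts, and it fell by 0.55 and 0.70 on the log2 scale. The other genes of that list did not pass, so its sum rests mainly on Isl2 and cannot tell whether motor neurons were present. The part of these marker changes in the receptor results was not tested.

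Leaving out each library in turn gave 10 to 15 calls in control and 11 to 16 in cKO ganglia, and over all genes 3116 to 4072 in place of 4601 and 2660 to 3747 in place of 3962. The 9 control calls that held in every such fit included Chrna4, Chrna5, Chrna6, Gabra5, Gabrb2, Gabrr3, Gria2 and Grik3, and the 10 in cKO included Chrna5, Chrna6, Chrnb3, Gabra5, Gabrb2, Gabrr3, Gria1 and Grik4. Without the 2 libraries whose sex transcripts go against the label there were 14 calls in control and 10 in cKO ganglia. Gabrd and Gria1 lost the control call, and a gene not called in the main fit gained one. Chrnb4, Gria2, Grik1, Grik3, Grik5 and Htr3b lost the cKO call. Over all genes the calls went from 4601 to 3982 in control and from 3962 to 2400 in cKO ganglia. With the sex read from transcripts as a covariate there were 15 and 5 receptor gene calls, and 4736 and 1414 over all genes. In that fit the 5 cKO calls were Chrna5, Chrna6, Gabra5, Gabrr3 and Grik5; sex and crush overlap in the cKO groups, and their parts were not tested further.

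**Figure D2:**
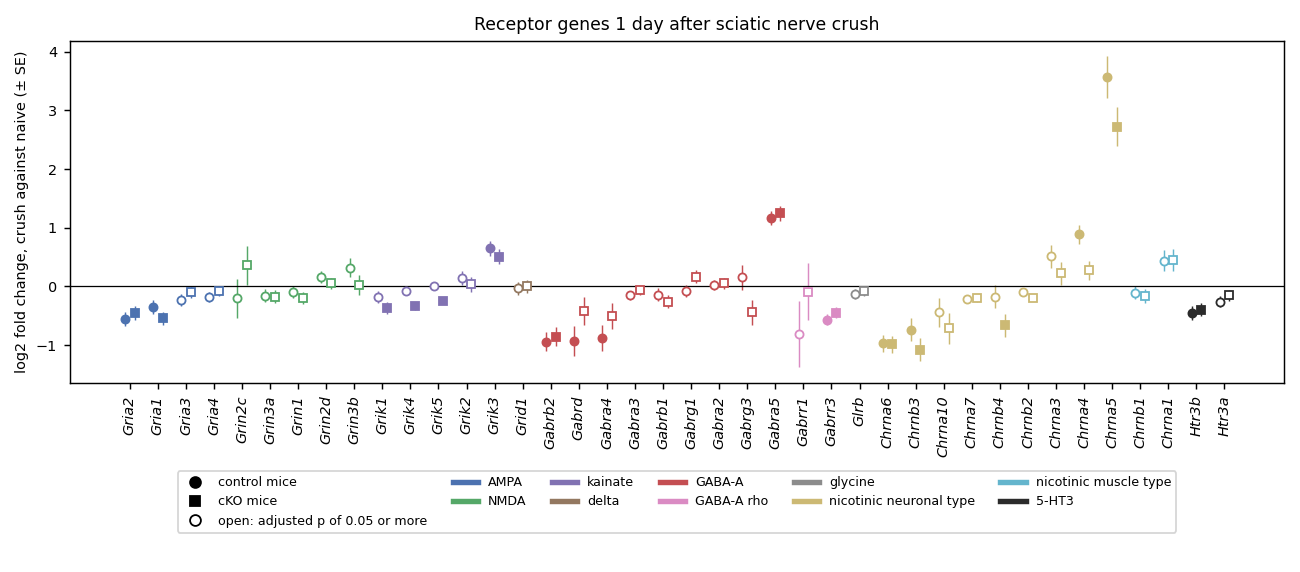
Log2 fold change, crush against naive, of 40 tested receptor genes (points) with standard error (bars), in control (circles) and cKO mice (squares), coloured by family; filled symbols passed an adjusted p of 0.05. Chrna5 lies highest at 3.57 and 2.72, Gabra5 next at 1.17 and 1.25, and most other filled symbols lie below 0.

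The promoters of 5 genes that changed in both genotypes are shown so that the sequence before genes that moved in opposite directions can be compared: Chrna5, Gabra5 and Grik3, which rose, and Gabrb2 and Gria2, which fell. Each runs 5′ to 3′ on the gene's strand from 250 bases before the start to 50 bases after it (RefSeq, GRCm38.p6). Capitals mark matches, on either strand, to 4 motifs: AP-1 (TGANTCA), a cAMP response element (TGACGTCA), a STAT site (TTCNNNGAA) and the core of the xenobiotic response element that Ahr binds (GCGTG, or CACGC on the other strand). These letters occurred in 7.81%, 1.79%, 8.3% and 32.4% of all 32851 promoters searched.
Chrna5 promoter, chr9:54980630-54980929, plus strand: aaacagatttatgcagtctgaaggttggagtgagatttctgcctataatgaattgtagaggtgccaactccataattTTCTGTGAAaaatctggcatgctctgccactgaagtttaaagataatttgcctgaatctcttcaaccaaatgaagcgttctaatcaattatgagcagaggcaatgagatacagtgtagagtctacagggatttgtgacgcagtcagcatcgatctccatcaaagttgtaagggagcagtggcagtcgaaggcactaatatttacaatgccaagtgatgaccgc
Gabra5 promoter, chr7:57510010-57510309, minus strand: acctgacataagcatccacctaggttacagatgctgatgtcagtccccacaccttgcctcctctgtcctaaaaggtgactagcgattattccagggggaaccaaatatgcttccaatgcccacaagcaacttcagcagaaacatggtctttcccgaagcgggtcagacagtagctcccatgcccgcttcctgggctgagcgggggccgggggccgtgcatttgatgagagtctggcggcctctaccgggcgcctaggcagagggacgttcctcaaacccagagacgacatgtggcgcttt
Grik3 promoter, chr4:125490446-125490745, plus strand: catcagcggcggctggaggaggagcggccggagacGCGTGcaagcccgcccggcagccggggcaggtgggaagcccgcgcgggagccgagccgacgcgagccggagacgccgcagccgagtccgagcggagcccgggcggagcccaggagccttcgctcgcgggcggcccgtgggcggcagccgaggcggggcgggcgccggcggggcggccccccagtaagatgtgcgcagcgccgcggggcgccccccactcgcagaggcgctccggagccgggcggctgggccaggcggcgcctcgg
Gabrb2 promoter, chr11:42420190-42420489, plus strand: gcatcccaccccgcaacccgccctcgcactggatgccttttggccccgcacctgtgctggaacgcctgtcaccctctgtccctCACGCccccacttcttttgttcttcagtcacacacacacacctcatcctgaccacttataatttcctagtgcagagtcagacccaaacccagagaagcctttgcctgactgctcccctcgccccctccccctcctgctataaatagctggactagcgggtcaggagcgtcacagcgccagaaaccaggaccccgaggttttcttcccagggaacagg
Gria2 promoter, chr3:80802786-80803085, minus strand: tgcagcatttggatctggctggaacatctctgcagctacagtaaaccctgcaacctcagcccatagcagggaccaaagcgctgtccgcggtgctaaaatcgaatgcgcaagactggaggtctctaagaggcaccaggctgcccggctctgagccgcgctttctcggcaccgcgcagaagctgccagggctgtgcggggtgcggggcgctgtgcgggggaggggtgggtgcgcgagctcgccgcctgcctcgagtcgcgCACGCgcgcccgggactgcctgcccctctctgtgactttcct
Chrna5 held 1 STAT match, TTCTGTGAA, at position -173 from the start, Grik3 and Gabrb2 the xenobiotic core at -215 and -167, Gria2 the same core at 9, and Gabra5 held none of the 4. RefSeq gives a further start for Chrna5, whose promoter held another STAT match, TTCCGAGAA, at 33, and 2 further starts for Gabrb2 with no match; these are not shown. Among the 47 promoters of the 42 receptor genes in the RefSeq table, 4.26% held AP-1, 0% the cAMP element, 10.6% STAT and 27.7% the xenobiotic core. A match is a stretch of letters and was not tested as a binding site. The base composition differed widely: 82% of the Grik3 promoter and 41.3% of the Chrna5 promoter was G or C, with 50 and 5 CG pairs.

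Among called genes, nicotinic receptor genes held the largest rise in both genotypes. They also held the largest fall in control and the 2 largest falls in cKO ganglia. Chrna5 (ENSMUSG00000035594.10, GRCm38 chromosome 9, 54980880 to 55007779, plus strand) codes for α5, an accessory subunit that changes the calcium permeability and desensitization of nicotinic channels. It was at 0.270, 0.226 and 0.455 CPM in naive control ganglia and at 3.63, 4.43 and 3.5 after crush. In cKO ganglia it was at 0.279, 0.596 and 0.673 before and 2.90, 4.94 and 2.55 after. Every injured library lay above every naive one, with 5 to 15 reads per naive and 59 to 96 per injured library. The rise was 3.57 ± 0.35 on the log2 scale in control (edgeR adjusted p = 3.3e-05) and 2.72 ± 0.33 in cKO ganglia (0.000176), that is 11.9-fold and 6.58-fold. A filter asking for 10 counts in every library left Chrna5 untested.

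Chrna4 (ENSMUSG00000027577.14, chromosome 2, 181018380 to 181043546, minus strand), the α4 subunit that pairs with β2 in the high-affinity nicotine receptor, passed the threshold in control ganglia. It went from 5.84, 8.90 and 7.52 CPM to 14.9, 13.7 and 12.5, a log2 change of 0.88 (edgeR adjusted p = 0.00245). In cKO ganglia it was at 11, 10.1 and 9.42 CPM before and 12, 9.88 and 14.9 after, with overlap and a log2 change of 0.28 (0.28). The difference between the genotypes, -0.61 on the log2 scale, had an unadjusted p of 0.0216 and did not pass adjustment.

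Chrna6 and Chrnb3, neighbours on chromosome 8 whose α6 and β3 subunits assemble into 1 receptor type, fell together. Chrna6 was at 88.2, 94.8 and 76.8 CPM in naive and 37.6, 47.9 and 47.0 in injured control ganglia, and at 109, 80.5 and 99.7 against 53.6, 39.1 and 52.7 CPM in cKO ganglia. Its log2 change was -0.97 ± 0.14 in control and -0.99 ± 0.14 in cKO ganglia (edgeR adjusted p = 0.000571 and 0.00055). Chrnb3 went from 12.5, 17.3 and 16.0 to 6.92, 10.9 and 9.69 CPM in control and from 18.8, 15.8 and 21 to 9.77, 6.48 and 9.96 in cKO ganglia. Neither gene's naive and injured libraries overlapped, although the control call of Chrnb3 (-0.74, adjusted p = 0.0188) was lost without naive control replicate 2 or 3 or injured control replicate 1 (0.061, 0.0577 and 0.0793). With the sex read from transcripts as a covariate, the cKO change of Chrnb3 was -0.92 (edgeR adjusted p = 0.0912).

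The other nicotinic genes moved less. On chromosome 9, Chrna3 and Chrnb4, which lie beside Chrna5 and code for the α3 and β4 subunits of autonomic ganglia, did not follow it. Chrna3 had a log2 change of 0.51 in control and 0.22 in cKO ganglia (edgeR adjusted p = 0.0839 and 0.488), with overlapping libraries. Chrnb4 fell in cKO ganglia, from 9.71, 8.66 and 7.89 to 4.75, 4.42 and 7.29 CPM (-0.67, 0.0303), and had a change of -0.17 in control ganglia. That cKO call was lost without the 2 libraries of mismatched sex transcripts (adjusted p = 0.143) and without naive cKO replicate 1 or 2 or injured cKO replicate 1 or 2 (0.0555 to 0.111). Chrna7 and Chrnb2, abundant α7 and β2 subunit genes, had changes from -0.10 to -0.21 that did not pass.

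Of 12 GABA-A receptor genes tested, 5 fell and 1 rose in control ganglia, where 8.73% of all genes fell and 12.9% rose. In cKO ganglia 3 fell and 1 rose, against 7.89% and 10.7% of all genes. Gabra5 (ENSMUSG00000055078.7, chromosome 7, 57407672 to 57510059, minus strand), the α5 subunit of extrasynaptic receptors, was the one that rose. It was at 5.93, 6.77 and 6.94 CPM in naive and 15.5, 14.7 and 14.0 in injured control ganglia, and at 7.01, 4.76 and 5.87 against 13.1, 15.5 and 13.4 CPM in cKO ganglia. No naive library reached an injured one, and the log2 change was 1.17 ± 0.13 in control and 1.25 ± 0.13 in cKO ganglia (edgeR adjusted p = 6.1e-05 and 4.9e-05). Gabra5 shares reads with overlapping genes, among them the predicted gene Gm9962, whose counts were 49.8% of its own, and its level is uncertain.

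Gabrb2, coding for the β2 subunit of synaptic GABA-A receptors, fell in both genotypes. It went from 16.2, 19.7 and 17.7 to 7.31, 9.34 and 11.2 CPM in control ganglia and from 18.9, 15.4 and 19.6 to 11.9, 8.49 and 9.36 in cKO ganglia. The naive libraries lay above the injured ones in both, with a log2 change of -0.94 ± 0.16 and -0.86 ± 0.16 (edgeR adjusted p = 0.00157 and 0.00309). With the sex read from transcripts as a covariate, the cKO change was -0.60 (edgeR adjusted p = 0.13).

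Gabrr3, a rho subunit gene, fell from 8.04, 9.44 and 8.18 to 5.35, 6.07 and 5.91 CPM in control ganglia (-0.57) and by a like amount in cKO ganglia (-0.45), with no overlap. Gabra4 and Gabrd, subunits of tonic, extrasynaptic receptors, passed in control ganglia only, with log2 changes of -0.87 and -0.93 (edgeR adjusted p = 0.0151 and 0.0207); in cKO ganglia the changes were -0.51 and -0.42 (0.139 and 0.281). Both are low, at 2.54 ± 0.272 and 1.03 ± 0.211 CPM in naive control ganglia. The Gabrd call was lost without naive control replicate 2 or injured control replicate 1 or 3 (0.0698 to 0.0958) and with DESeq2 (0.1), and the Gabra4 call without naive control replicate 3 or injured control replicate 1 or 2 (0.0579 to 0.0656). Gabra2, Gabra3 and Gabrg1, all above 30 CPM in naive control ganglia, had changes between -0.15 and 0.17 and did not pass.

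Among glutamate receptor genes, 2 of the 4 AMPA subunits, Gria1 and Gria2, fell in both genotypes, where 8.73% and 7.89% of all genes fell. Gria2 (ENSMUSG00000033981.14, chromosome 3, 80681450 to 80802835, minus strand) went from 21.6, 26 and 24.3 to 13.5, 16.4 and 19.0 CPM in control ganglia and from 26.4, 24.4 and 26.5 to 21.3, 17.1 and 17.9 in cKO ganglia. The groups did not overlap, and the log2 changes were -0.56 ± 0.12 and -0.46 ± 0.12 (edgeR adjusted p = 0.00606 and 0.0184). Gria1 (GluA1) fell by 0.36 in control and by 0.54 in cKO ganglia on the log2 scale (0.0465 and 0.00597). Its control call was lost without any 1 of naive control replicates 2 and 3 and the 3 injured control libraries (0.0512 to 0.148), and the cKO call of Gria2 was lost without naive cKO replicate 1 or 3 or injured cKO replicate 2 or 3 (0.056 to 0.0748). With the sex read from transcripts as a covariate, the cKO changes of Gria1 and Gria2 were -0.35 and -0.28 (edgeR adjusted p = 0.202 and 0.354). Gria3 and Gria4 had changes from -0.08 to -0.23 that did not pass.

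Kainate receptor genes did not move together. Grik3 (ENSMUSG00000001985.9, chromosome 4, 125490700 to 125714173, plus strand), coding for GluK3, rose from 30.9, 36.0 and 37.6 to 58.2, 59.6 and 46.4 CPM in control ganglia (0.65 ± 0.13, edgeR adjusted p = 0.00343). In cKO ganglia Grik3 went from 34.5, 46.4 and 40.6 to 51.3, 63.9 and 57.1 CPM (0.50 ± 0.13, 0.0156), again without overlap. The cKO call was lost without naive cKO replicate 1 (0.0757), naive cKO replicate 3 (0.0548) or injured cKO replicate 2 (0.0792), and at 0.0515 without both mismatched libraries. Grik1, Grik4 and Grik5, coding for GluK1, GluK4 and GluK5, fell in cKO ganglia by 0.36, 0.34 and 0.24 on the log2 scale (adjusted p = 0.0292, 0.00662 and 0.0193) and had changes of -0.18, -0.07 and 0.01 in control ganglia. The Grik1 call was lost without naive cKO replicate 1 or 3 or injured cKO replicate 2 (0.0823 to 0.11) and that of Grik5 without naive cKO replicate 1 or 3 or injured cKO replicate 1 (0.0521 to 0.0549). Of the 5 NMDA receptor genes tested, 0 passed edgeR's adjustment in either genotype and 0 fell under an unadjusted p of 0.05, where 33.8% of all genes in control and 30.8% in cKO ganglia did. Of the 2 delta receptor genes 0 passed.

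Glrb, the one glycine receptor gene tested, had changes of -0.13 and -0.09 and did not pass. Htr3b, the 5-HT3B subunit that raises the conductance of 5-HT3 channels, went from 21.1, 25.0 and 20.2 to 14.1, 16.8 and 17.4 CPM in control ganglia (-0.45 ± 0.11, edgeR adjusted p = 0.0132) and from 20.1, 20.8 and 24.5 to 16.2, 15.3 and 18.1 in cKO ganglia (-0.40 ± 0.11, 0.0283). Naive Htr3b libraries all lay above the injured ones. The control call was lost without injured control replicate 1 (0.058), and the cKO call without naive cKO replicate 3 or injured cKO replicate 1 or 2 (0.0633 to 0.115). Its neighbour Htr3a had changes of -0.26 and -0.15 with overlapping libraries (0.0761 and 0.325).

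**Figure D3:**
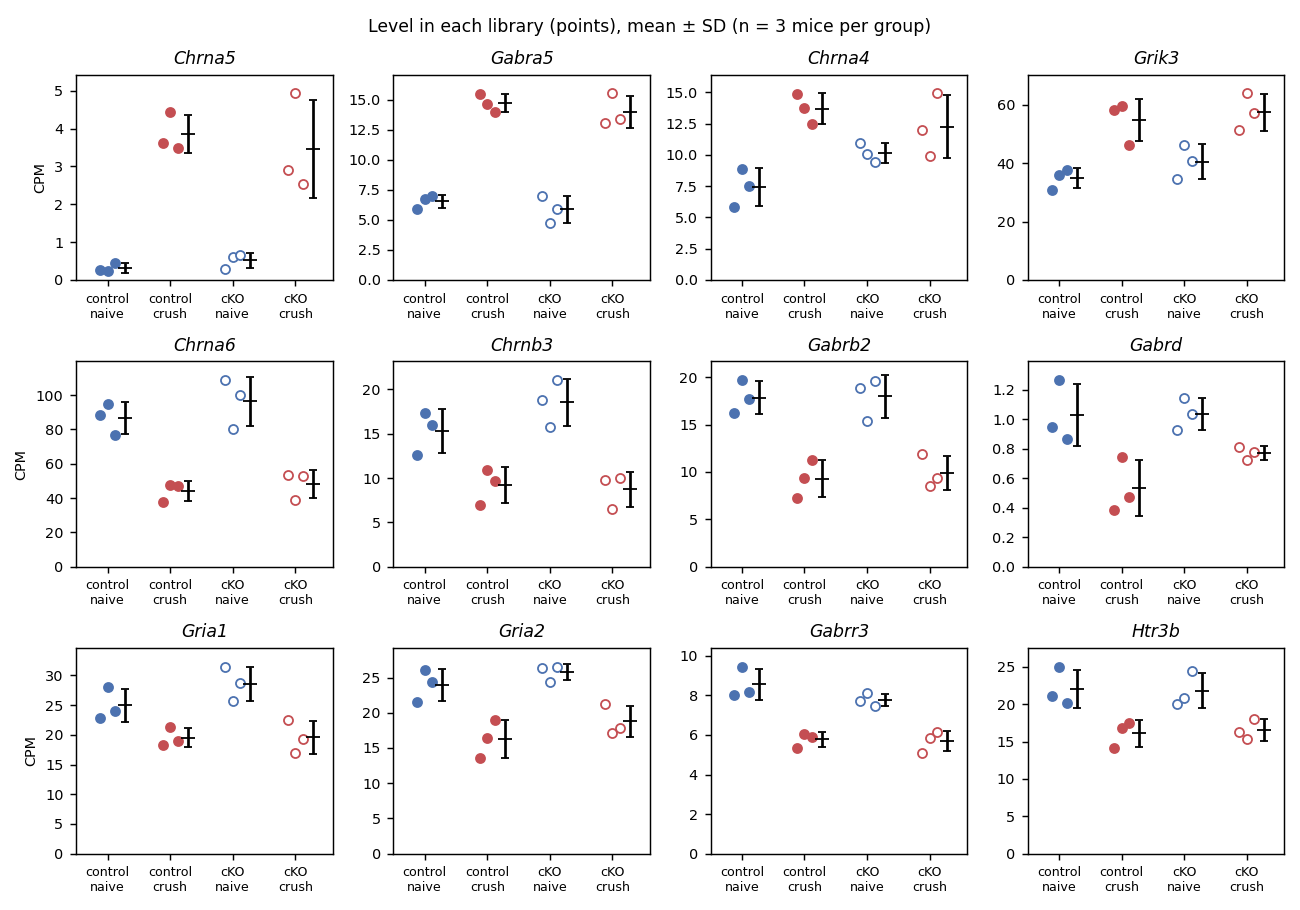
CPM of 12 receptor genes in each naive (blue) and injured (red) library of control (filled) and cKO mice (open), with the mean and SD beside them (n = 3 mice per group). Chrna5, Gabra5 and Grik3 are higher after crush in both genotypes, Chrna4 separates in control mice, and the other 8 are lower after crush in every panel without overlap.

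Genes that act on these receptors were read from lists of known partners, whose counts stand against 12.9% of all genes rising and 8.73% falling in control and 10.7% and 7.89% in cKO ganglia. Of 28 glutamate receptor accessory genes tested, 6 rose and 2 fell in control and 5 rose and 3 fell in cKO ganglia. Shisa9, an AMPA receptor auxiliary subunit, rose by 2.49 in control and 2.38 in cKO ganglia on the log2 scale (edgeR adjusted p = 6.5e-05 and 0.000113), and Shisa6 by 1.1 and 0.81. Neto2, an auxiliary subunit of kainate receptors, rose by 0.97 and 0.88, and Nptx2, a pentraxin that clusters AMPA receptors, by 0.81 and 0.49. Cacng2, which codes for stargazin, fell by 0.67 and 0.60. Of 10 nicotinic receptor chaperones and modulators, 0 rose and 5 fell in each genotype: Lypd1, Lypd6, Lypd6b, Ly6h and Tmem35a, the last a chaperone known as NACHO. Lypd6 fell by 0.59 and 0.66 on the log2 scale.

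Against the same shares of all genes, among 10 GABA and glycine receptor accessory and chloride transport genes, 2 rose and 1 fell in control and 0 rose and 1 fell in cKO ganglia. That 1 was Lhfpl4, a GABA-A receptor clustering protein, at -0.27 and -0.32. Of 24 metabotropic receptor genes for the same transmitters, 3 rose and 9 fell in control and 2 rose and 7 fell in cKO ganglia. Htr2b rose by 1.05 and 1.25, Chrm2, the muscarinic M2 receptor gene, fell by 1.15 and 0.78, and Grm5 changed by -1.30 in control (0.0113) and -0.68 in cKO ganglia (0.119). Of 18 genes of transmitter synthesis, transport and breakdown, 4 rose and 0 fell in control and 3 rose and 1 fell in cKO ganglia. Glul, glutamine synthetase of satellite glia, rose by 0.58 and 0.48, Slc1a2, a glutamate transporter, by 0.72 and 0.72, and Slc17a6, the vesicular glutamate transporter VGLUT2, by 0.49 and 0.35.

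Genotype was compared in 5 settings, and no receptor gene passed the threshold in any of them with edgeR. In naive ganglia 0 of 44 were called, against 0.00941% of all genes; 6 (and 5.79% of all genes) fell under an unadjusted p of 0.05, and DESeq2 called 0. Groups did not overlap for 5 of 44 receptor genes, against 11.5% of all genes. The smallest p belonged to Grik4, at 60.6, 53.9 and 55.5 CPM in cKO against 46.2, 50.3 and 46.9 in control ganglia (0.25 ± 0.07 on the log2 scale, edgeR adjusted p = 0.754), to Gabrb1 and to Gabrg3. After crush 0 of 44 were called, against 0.00941%, with 0 at an unadjusted p under 0.05, against 2.72% of all genes, and 0 by DESeq2; groups did not overlap for 7 of 44, against 8.72%. The difference in the injury response between genotypes gave 0 calls, against 0% of all genes, 3 unadjusted p under 0.05 (Grik5, Chrna4 and Grik4; 2.95% of all genes) and 0 by DESeq2. Grik5 differed by -0.25 ± 0.09 on that scale.

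In cultured neurons 0 of 51 receptor genes differed between genotypes with edgeR, against 0% of all genes, and 7 had an unadjusted p under 0.05, against 8.0% of all genes. DESeq2 called 2, Grin3a and Chrna3, among 163 of all genes. Grin3a, the GluN3A subunit that lowers the calcium permeability of NMDA receptors, was at 13.7, 15.6 and 13.8 CPM in cKO and 6.56, 9.08 and 10.9 in control neurons (0.68 ± 0.17, edgeR adjusted p = 0.457, DESeq2 0.0198). Chrna3 was at 11.6, 11.3 and 7.31 against 5.18, 6.90 and 5.07 CPM (0.80 ± 0.20, edgeR 0.466, DESeq2 0.0244). Neither gene's groups overlapped, as was so for 8 of 51 receptor genes, against 15.2% of all genes. Grin2b was at 0.179, 0.323 and 0.171 CPM in cKO and 1.01, 0.503 and 0.499 in control neurons (-1.49, edgeR 0.504).

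Sham surgery gave a comparison of the operated side with the opposite side of the same 4 mice. None of the 51 receptor genes passed with edgeR, against 0.00451% of all genes; 8 (and 7.56% of all genes) fell under an unadjusted p of 0.05, and DESeq2 called 0. That fit leaves out the mouse. With the mouse as a block edgeR called 1, Chrna3 (1.04 on the log2 scale, adjusted p = 0.0433), among 4 of all genes. The Chrna3 ratio of operated to opposite side was 0.972 and 1.16 in the control and 4.29 and 3.74 in the cKO mice. Chrna5, which rose most after crush, was higher on the operated side of all 4 mice. It was at 0.247 and 0.187 CPM on the opposite and 0.786 and 0.580 on the operated side of the control mice, and at 0.193 and 0.128 against 0.556 and 0.608 CPM in the cKO mice. The log2 difference was 1.74 ± 0.27 (edgeR adjusted p = 0.181, and 0.00332 with no filter on low counts, where calls over all genes went from 1 to 381). All 4 operated ganglia lay below the 2.55 CPM that was the lowest injured value after crush; the sets are in separate count tables and their difference was not tested.

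Chrna3, Chrnb3 and Chrnb4, singled out after their values were seen, were highest in the operated ganglia of the cKO mice, although no receptor gene passed between genotypes there. Chrna3 was at 73.8 and 26.3 CPM on the operated side of the cKO mice, and at 17.2 and 7.04 on their opposite side. In the control mice it was at 15.8 and 8.94 CPM on the operated and 16.3 and 7.69 on the opposite side. Chrnb4 was at 34.6 and 14.6 CPM in the operated cKO ganglia and at 3.72 to 8.93 in the other 6, and Chrnb3 at 26.2 and 14.3 against 8.16 to 10.3 CPM. Gabrg3 (GABA-A γ3) was at 6.22 and 2.30 CPM there and at 1.38 to 2.82 in the other 6, so that 1 of these libraries lay within their range. Both operated cKO ganglia were above all others for Chrna3, Chrnb3 and Chrnb4, and replicate 1 was the higher for each. In that same library Grin3a, Htr3a and Htr3b, at 52.7, 166 and 38.4 CPM, also exceeded the other 7 sham libraries. Chrnb4 overlaps the predicted gene Gm47877 on the opposite strand, whose total over all libraries was 29.0% of its own.

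Against operated control ganglia these were log2 differences of 2.01 for Chrna3, 2.21 for Chrnb4, 1.21 for Chrnb3 and 1.61 for Gabrg3. No receptor gene passed (0 of 51, against 0.00451% of all genes; 7 at an unadjusted p under 0.05, against 7.59% of all genes; edgeR adjusted p = 0.534, 0.498, 0.498 and 0.528 for these 4), with 2 mice per group. Groups did not overlap for 20 of 51 receptor genes, against 33.3% of all genes. edgeR made 1 call over all genes in this comparison. DESeq2 called 2, Chrnb3 (0.000647) and Gabrg3 (0.0454), among 153 of all genes, and with no filter on low counts edgeR called all 4, among 626. With the replicate number as a block edgeR called Chrnb4 (0.0174), among 3 of all genes, and without operated cKO replicate 2 it called Chrnb3 (0.0397), among 30, a fit in which the lone cKO library is assumed to vary like the other groups. On the opposite side 0 of 51 differed between genotypes, against 0% of all genes, where 2 (and 5.23% of all genes) fell under an unadjusted p of 0.05 and DESeq2 called 0; groups did not overlap for 14 of 51, against 39% of all genes.

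Because Chrna3 and Chrnb4 are also receptors of sympathetic ganglia, 3 markers of sympathetic neurons, chosen after these values were seen, were read: Dbh, Hand2 and Slc6a2 summed to 0.185 and 0.50 CPM in the operated cKO ganglia and to 0.144 to 0.459 in the other sham ganglia, and Hand2 was at 0 in both operated control ganglia. Skeletal muscle markers (5 genes) summed to 18.2 CPM in operated cKO replicate 1 and 1772 in replicate 2, against 2.92 to 326 CPM in the other 6 sham libraries. Their part in the result was not tested.

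**Figure D4:**
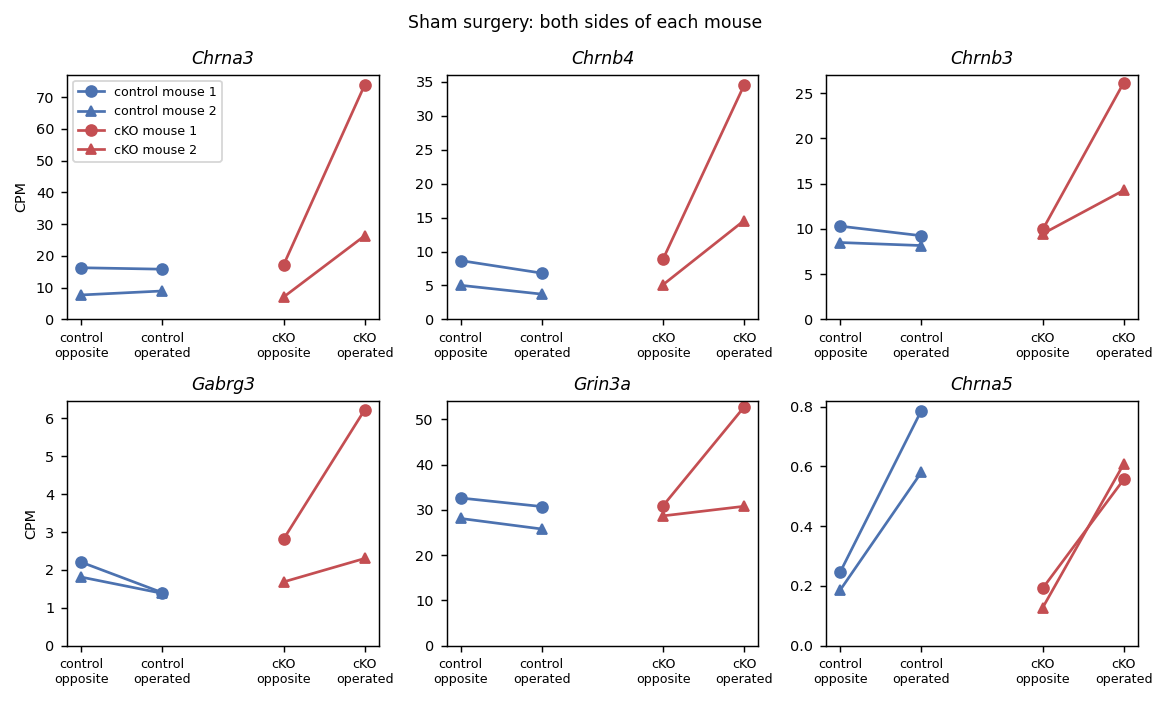
CPM of 6 receptor genes in both sides of each sham-operated mouse (lines join the opposite and the operated side of 1 mouse; blue control, red cKO). Chrna3, Chrnb4 and Chrnb3 are higher on the operated side of both cKO mice, up to 73.8 for Chrna3, while Chrna5 is higher on the operated side of all 4 mice.

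Cultured control neurons were set against naive control ganglia. Of 45 receptor genes tested 37 differed, 7 higher and 30 lower in the neurons, against 80% of all genes (40.1% higher and 39.9% lower); the median log2 difference was -0.95 over the receptor genes and -0.01 over all genes. Groups did not overlap for 39 of 45 receptor genes, against 83% of all genes. The groups come from different tables, so tissue, culture and sequencing set cannot be told apart. Sensory neuron markers also had a median difference of -0.93, with 3 of 7 higher and 4 lower, and endothelial markers summed to 886 to 1266 CPM in the neurons against 92.5 to 124 CPM. Set instead against the opposite-side ganglia of sham control mice in the same table, a choice made after the data were seen, 38 of 51 differed, 6 higher and 32 lower, against 64.6% of all genes (31.2% higher and 33.5% lower). The neurons came from female Ahr fl/fl mice, and these ganglia from male Ahr f/+ or Ahr fl/fl mice 1 day after surgery. Tissue and culture cannot be told apart from sex and surgery there, and the control genotypes were not the same. Both comparisons use the same 3 neuron libraries, so their values are given side by side below and are not independent of each other.

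GABA-A receptor genes spanned the widest range. Gabrr3 was at 0.445, 0.313 and 0.582 CPM in the neurons against 8.04, 9.44 and 8.18 in naive ganglia (-4.20 ± 0.24 on the log2 scale, edgeR adjusted p = 1.7e-06), but at 1.62 and 1.29 CPM in the sham ganglia (-1.86). Gabra4 was lower by 4.00 against naive ganglia and by 2.99 against sham ganglia, and Gabrg1 by 3.58 and 2.38. Gabre (GABA-A ε) and Gabrr2 (rho2) were higher in the neurons. Gabre was at 1.34, 1.49 and 1.11 CPM in the neurons and at 0.0449, 0.316 and 0.0826 in naive ganglia, a log2 difference of 3.22 against naive and 2.57 against sham ganglia. Gabrr2 had differences of 2.89 and 1.84. The naive libraries held few reads for these 2 genes, so the size of the difference is poorly set.

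Gria4 and Gria2 were lower in the neurons by 2.56 and 2.17 on the log2 scale against naive ganglia and by 2.43 and 1.93 against sham ganglia. Gria2 was at 4.17, 4.74 and 6.10 CPM in the neurons and 21.6, 26 and 24.3 in naive ganglia, without overlap. Chrna6 was at 18.6, 19.7 and 20.8 CPM in the neurons and 88.2, 94.8 and 76.8 in naive ganglia (-2.06 ± 0.10, edgeR adjusted p = 6.9e-07), and the difference against sham ganglia was -2.01. Chrnb3 had differences of -2.18 against naive and -1.70 against sham ganglia, and Chrna10 of -2.44 and -2.87. Chrna10 overlaps Art1 on the opposite strand, whose total over all libraries was 115% of its own, so its values are uncertain. Grin2b was higher than in naive ganglia by 2.03 but by 0.43 against sham ganglia (0.00405 and 0.417). Grik3 was higher by 0.56 and 0.30 (0.00293 and 0.067). Grik5 was at 47.5, 54.9 and 46.5 CPM in the neurons, above the 33.9 to 38.6 of naive ganglia and below the 74.3 and 77.6 CPM of sham ganglia.

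**Figure D5:**
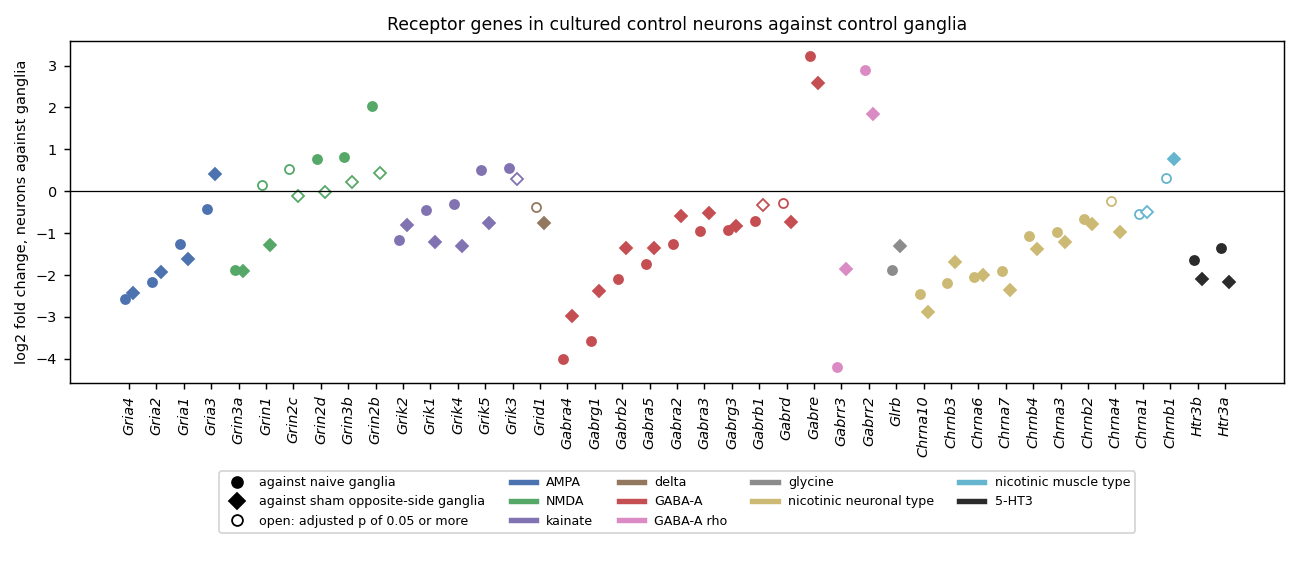
Log2 fold change of 41 receptor genes in cultured control neurons, against naive control ganglia (circles) and against the opposite-side ganglia of sham control mice (diamonds), coloured by family; filled symbols passed an adjusted p of 0.05. Most symbols lie below 0, with Gabrr3 at -4.20 and -1.86, and Gabre at 3.22 and 2.57.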

How the data were processed

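The authors deposited raw counts per gene for 26 libraries in 2 tables, with FPKM values beside them. The submitters' processing notes name Trim Galore, HISAT2, featureCounts and mm10; versions are not given in the sources used here. The deposited FPKM values divide by the gene span, introns included, within 0.1% for 99.4% of 40409 genes, and served here for 1 ranking. Tsix held 100% to 100.3% of the counts of Xist, its overlapping antisense gene, so overlapping genes share counts whatever their strand; of the 55401 IDs 55141 matched GENCODE M21.

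Counts were tested with edgeR 4.0.16 (R 4.3.3, limma 3.58.1) by the quasi-likelihood test with TMM factors and filterByExpr (minimum count 10, minimum total 15). Naive and injured ganglia shared 1 fit, as did the neurons, the sham ganglia, and the neurons with naive ganglia across the tables. Benjamini-Hochberg adjustment ran over all genes tested, with a threshold of 0.05. Values after ± are standard errors for fold changes and SDs for levels. Alternatives were DESeq2 1.42.0, other factors, filters and thresholds, sex covariates, a replicate block and leaving out each library. The procedure was tested on simulated data, and no outcome of that test is given here.

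Members and gene lists were chosen with earlier results of these data known. Named genes are those called, up to the 12 with the largest change per comparison, or else the 3 with the smallest p, plus 17 members of known roles in sensory ganglia. List genes are the 4 with the largest change. Some genes of the set are not reported here, though counts include them. Any other gene named was chosen after its values were seen. The labels name a separate mouse for each library of a group, and p-values measure the spread between mice. Same-numbered samples correlated from -0.418 to 0.412 and share a number only, except that the 2 sides of a sham-operated animal share the mouse (0.229 in control and -0.159 in cKO mice).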

Additional observations from a re-analysis of the deposited data

Results flagged for a closer look

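In 12 of the 289 pairs of settings screened over 35 receptor genes, the cKO and control libraries separated without overlap in opposite directions. These differences were not tested apart from that of Grik5 between naive and injured ganglia, the difference in its injury response between genotypes, which did not pass (-0.25 on the log2 scale, edgeR adjusted p = 1.00). Groups without overlap were common among all genes, at 11.5% in naive ganglia, 8.72% in injured ganglia, 15.2% in neurons, 33.3% on the operated and 39% on the opposite side after sham surgery. The 35 genes include some named for the smallest p in these same comparisons, such as Grik4 and Grik5. The share of such opposite pairs over all genes was not worked out. The log2 difference, cKO minus control, of Chrna7 was 0.11 in injured ganglia, -0.21 on the operated and -0.17 on the opposite side. Chrnb2 had 0.21 in neurons, -0.073 on the operated and -0.10 on the opposite side. For Gabra2 it was 0.19 in injured ganglia and -0.24 on the operated side. Gabrg1 had 0.15 in injured ganglia and -0.39 on the operated side. Gria4 had 0.16 in injured ganglia, -0.19 on the operated and 0.059 on the opposite side. Grik4 had 0.25 in naive ganglia, -0.12 on the operated and -0.19 on the opposite side, and Grik5 0.11 in naive ganglia, -0.14 in injured ganglia and -0.067 on the opposite side.

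For 7 of the 42 receptor genes with a mean of at least 0.5 CPM in each sham group (16.7%), and for 12% of the 18369 genes at that level, both sham-operated control mice moved one way between sides and both cKO mice the other; this was not tested. The mean log2 difference, operated minus opposite side, was -0.11 in control and 0.99 in cKO mice for Chrnb3, -0.38 and 1.71 for Chrnb4, and -0.49 and 0.77 for Gabrg3. It was 0.013 and -0.46 for Gabrg1, -0.33 and 0.13 for Gria1, 0.034 and -0.22 for Gria4, and -0.10 and 0.43 for Grin3a. With 2 mice per genotype, skeletal muscle marker sums of 18.2 and 1772 CPM in the operated cKO ganglia stand beside these values, and their part was not tested.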

How the results depend on the processing

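Of the 806 values of single genes under alternatives, 760 kept their direction and side of the threshold, 36 lost the call, 10 gained one and 0 reversed. Of the 137 counts, 128 stayed within 1.5 times. Injury calls in cKO ganglia went from 16 to 5 with the sex read from transcripts as a covariate (3962 to 1414 over all genes) and to 10 without the 2 mismatched libraries (2400). Neuron genotype calls went from 0 to 2 with DESeq2 (0 to 163 over all genes). Sham side calls went from 0 to 2 without the filter on low counts and to 1 with the mouse as replicate block (from 1 to 381 and 4 over all genes). Operated-side genotype calls went from 0 to 2 with DESeq2, 4 without the filter and 1 with the replicate block (from 1 to 153, 626 and 3 over all genes). Leaving out 1 library gave 10 to 15 injury calls in control, 11 to 16 in cKO, 0 to 1 for operated-side genotype, 37 to 39 for neurons against ganglia and 0 elsewhere; over all genes it gave 3116 to 4072, 2660 to 3747, 1 to 98, 16253 to 17607, and 0 to 41 elsewhere. The replicate block gave 14 and 16 injury calls and 39 for neurons against ganglia; samples share only a number there, and it ended the control call of Gria1 (adjusted p = 0.0744). The cause of these shifts was not tested. Few reads limit the precision of the values of Chrna5, Gabre, Gabrr2 and Grin2b.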
